A study of Mus musculus with 5 samples.

Results

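Cytosolic ribosomal protein genes encode the proteins of the 2 subunits of the ribosome that translates cytoplasmic mRNA. Members were chosen by symbol alone: RefSeq mouse symbols made only of Rpl or Rps, a number and optional letters, together with Rplp0, Rplp1, Rplp2 and Rpsa. A digit after the letters kept a symbol out, so that Rps3a1, a small subunit gene, is not among the members. The S6 kinase genes (Rps6k) and 3 pseudogenes with a matching symbol were left out. The rule gave 84 genes, 52 of the large (60S) and 32 of the small (40S) subunit, of which 81 had a listed transcript among the 17058 genes with one. Rpl10l, Rpl32l and Rps27rt had no listed transcript in any library. Of the 81, 79 passed the filter on low counts and were tested, 48 of the large and 31 of the small subunit.

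The RNA came from bone marrow-derived macrophages (BMDMs) of Balb/c mice, differentiated with the growth factor M-CSF and kept for 48 hours across a porous membrane from 4T1 cells, a mouse mammary carcinoma line of the same strain. In 2 libraries the cancer cells were WT, and in 3 they carried a CRISPR knock-out of Adam17, the gene of a protease that sheds growth factors from the cell surface. The macrophages themselves were not edited. Their own Adam17 transcript lay at 198 and 200 CPM beside WT cells and at 152 to 164 CPM beside Adam17-/- cells, which is no check of the labels. The labels give 1 knock-out designation, 2.8, for all 3 libraries of the second group, and what else may mark that line cannot be told apart from the loss of Adam17. The groups are called WT and Adam17-/- below after the cancer cells. The labels do not say that the replicates were separate cultures, so the p-values measure the spread between these libraries, which may be technical.

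Most ribosomal proteins are present once in each ribosome, and their mRNAs are among the most abundant short transcripts of most cells. Their production is known to be set largely in translation: the mRNAs begin with a run of pyrimidines, the 5′ terminal oligopyrimidine (TOP) motif, through which the kinase complex mTORC1 and the RNA-binding protein Larp1 control how much of each mRNA is read. Amounts of polyadenylated RNA, as measured here, do not measure that step.

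The start-site sequences are shown because a pyrimidine run at the start is the feature these mRNAs are known for, and because its length varies among the members. The windows run from 10 bases before to 19 bases after the first annotated base, are read 5′ to 3′ on the gene's strand, and come from the RefSeq annotation of mouse build GRCm38.p6. Capitals mark the longest unbroken run of C and T anywhere in the window, which need not cover the first annotated base. In Rpl9 and Rpl26 the marked run lies before that base, and in Rpl39 it lies after it. In the other windows shown the run covers that base. The first 5 are the genes that passed the test between the groups. The other 5 did not pass, and they were picked from the members with long runs and are not the 5 longest (Rpl7a has 17 bases). Members that did not pass also had short runs, such as 2 bases in Rps3 and 3 in Rpl41, which are not shown.
Rpl35a: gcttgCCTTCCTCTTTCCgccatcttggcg
Rps21: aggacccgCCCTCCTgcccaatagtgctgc
Rpl39: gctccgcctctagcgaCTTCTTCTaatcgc
Rpl9: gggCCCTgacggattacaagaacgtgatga
Rpl26: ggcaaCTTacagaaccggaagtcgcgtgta
Rpl27a: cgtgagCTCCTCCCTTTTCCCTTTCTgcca
Rpl35: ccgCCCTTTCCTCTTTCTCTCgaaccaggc
Rpl15: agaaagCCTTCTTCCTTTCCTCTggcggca
Rpl28: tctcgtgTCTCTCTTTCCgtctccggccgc
Rps27: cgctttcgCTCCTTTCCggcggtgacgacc

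In the same order these windows lie at chr16:33056472-33056501 (plus strand, 1 of 3 annotated starts of Rpl35a), chr2:180257369-180257398 (plus strand, 1 of 2 starts of Rps21), chrX:37085203-37085232 (minus strand), chr5:65391412-65391441 (minus strand), chr11:68901556-68901585 (plus strand), chr7:109519185-109519214 (plus strand), chr2:39005112-39005141 (minus strand), chr14:18270967-18270996 (minus strand), chr7:4792955-4792984 (plus strand) and chr3:90213629-90213658 (minus strand). For the genes with several starts the window with the longest run is shown, and the runs at the other starts were 4 and 5 bases in Rpl35a and 4 in Rps21. The runs shown for the genes that passed ranged from 13 bases in Rpl35a and 8 in Rpl39 to 7 in Rps21, 4 in Rpl9 and 3 in Rpl26. Rpl27a had a run of 20 bases and Rpl35 one of 18.

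A start was annotated in the promoter table for 64 members. A run of 7 or more pyrimidines (C or T, on the gene's strand) lay somewhere in the window of 33 of them (51.6%), whether or not it covered the first annotated base. This held for 21.2% of 10004 other tested genes and 20.5% of all 27025 genes in the table. The word CTTTCC, which can overlap such a run, was in the window of 11 members (17.2%) and of 1.5% of the other tested genes. The word CGGAAG, the core of the sites bound by ETS factors, was on either strand of the 300 bases around the start in 42 members (65.6%) and in 34.9% of the other tested genes. A gene with several starts was counted if any start had the word, and a match is a description and not a site. The median log2 fold change was 0.048 over 31 tested members with a run of 7 or more, 3 of which passed, and 0.040 over 28 with a shorter run, 2 of which passed. Of all 12576 genes tested, 31.7% passed. It was 0.035 over 41 members with CGGAAG and 0.058 over 18 without it.

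Depth was higher in both WT libraries. The 2 WT libraries held 20788373 and 19204243 counts and the 3 Adam17-/- libraries 17421992, 14658694 and 18210258, so that 3 counts corresponded to 0.157 to 0.197 CPM, that is, counts scaled by the TMM-adjusted library size to a common total. Macrophage markers were abundant in every library, and Cdh1 was the only gene of the 4T1 epithelial list that passed the filter. The summed level of 8 macrophage markers was 27660 and 28420 CPM in WT and 17940 to 19910 CPM in Adam17-/- libraries, with 6 of 8 lower by the test. Over 9 neutrophil and precursor markers it was 324 and 393 CPM against 1132 to 1306 CPM, with 8 of 9 higher. Of 6 megakaryocyte and platelet markers 4 were higher and 2 lower, and of 3 dendritic cell markers 1 was higher. Of 3 fibroblast markers and 1 T, B and NK cell marker tested, 0 passed with edgeR or DESeq2, also at an unadjusted p under 0.05, and the summed fibroblast level was 97.3 CPM in Adam17-/- replicate 3 against 19.7 to 39.5 CPM in the other libraries. The part of these markers in the results on ribosomal protein genes was not tested. In bulk RNA, fewer cells of a type and less RNA per cell cannot be told apart.

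The comparison asks whether the macrophages' ribosomal protein transcripts differed with the ADAM17 status of the cancer cells. Few passed the test, and the differences were small. Of the 79 members tested, 5 were higher in macrophages cocultured with Adam17-/- cells (6.33%) and 0 were lower, with an adjusted p no higher than 0.05 by edgeR's quasi-likelihood test with Benjamini-Hochberg adjustment over all 12576 genes. Over all genes 31.7% passed, 14.9% higher and 16.8% lower. At an unadjusted p under 0.05 there were 10 members higher and 5 lower (19.0%, against 43.5% of all genes), and DESeq2 called 5 higher and 1 lower, the lower one being Rps2, with 26.4% of all genes passing. The count depended on WT replicate 2: without it 28 members were higher and 5 lower, 41.8% of those tested against 41.9% of all genes. With a further limit of 1 on the absolute log2 fold change, 0 members passed with either tool, also at an unadjusted p under 0.05, against 4.22% of all genes with edgeR.

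The members stayed close to one another. Their median log2 fold change was 0.03, beside 0.01 over all genes, and the SD over members was 0.192, beside 0.512 over all genes and 0.368 over 2212 other genes of 100 CPM or more. An absolute log2 fold change under 0.25 was found for 69 members (87.3%), for 47.5% of all genes and for 49.8% of those abundant genes. In the 76 members with at least 10 CPM every value lay between -0.23 and 0.44. For 40 of the 79 the fold change was smaller than its own standard error (SE), which had a median of 0.0871 over the members.

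**Figure D1:**
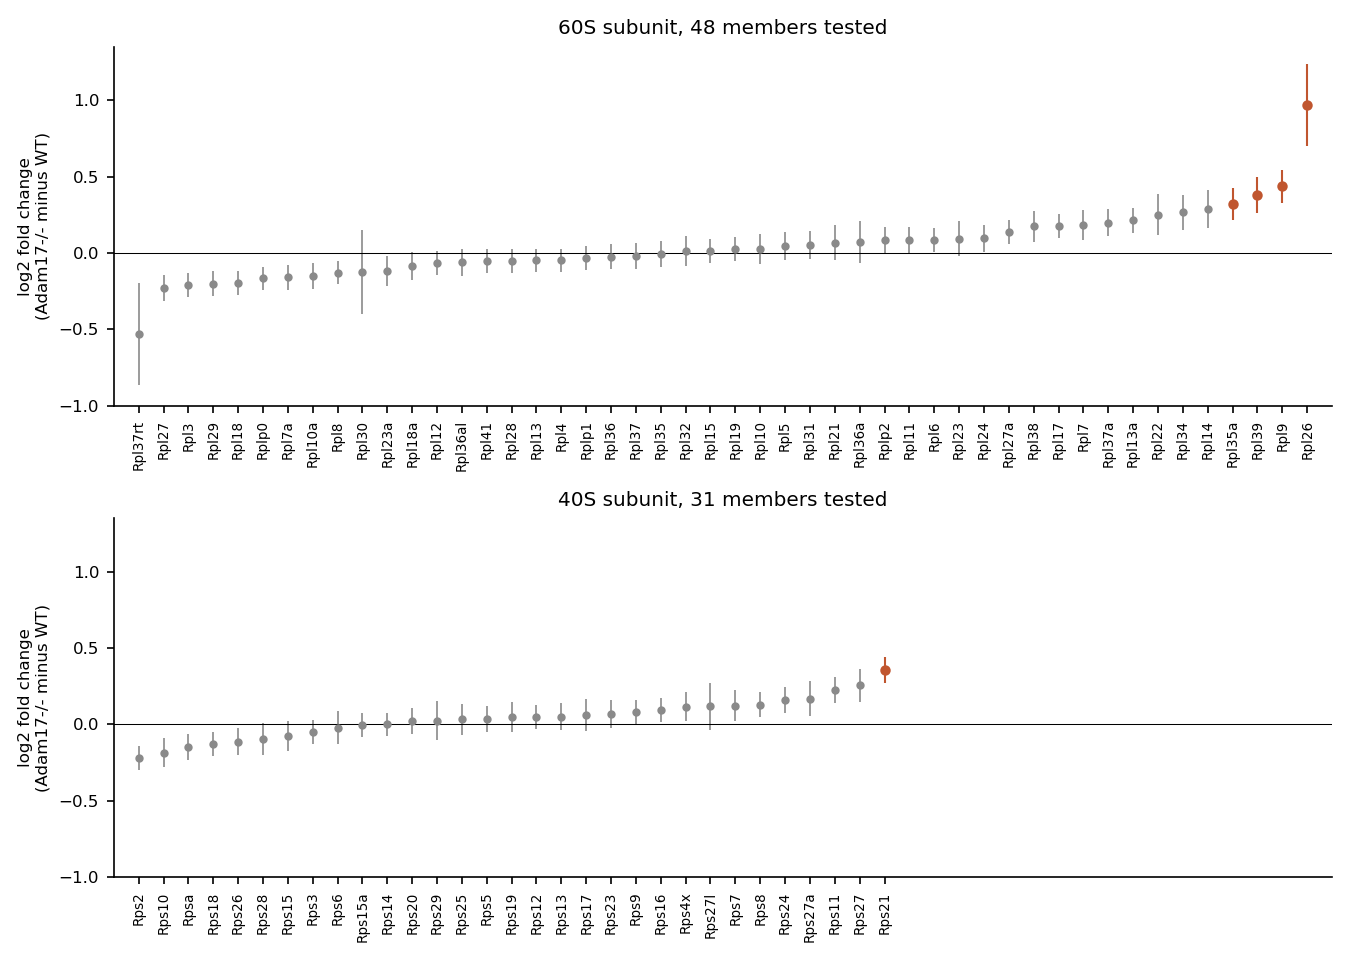
Log2 fold change of each tested member, Adam17-/- minus WT, ordered within the large (60S, top) and small (40S, bottom) subunit. Bars are the standard error from edgeR, and the 5 coloured points had an adjusted p no higher than 0.05: Rpl35a, Rpl39, Rpl9 and Rpl26 above and Rps21 below.

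The 2212 other genes of 100 CPM or more had a median SE of 0.0891. Of these genes 1018 passed, 12.5% higher and 33.5% lower, and the median log2 fold change was -0.13. Without WT replicate 2, 64.3% of them passed beside 41.8% of the members, and without WT replicate 1, 52.2% beside 7.59%. The difference in share was not tested. In 29 members (36.7%) the groups did not overlap, 16 higher and 13 lower in Adam17-/- libraries, while over all genes this held for 58.1%.

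**Figure D2:**
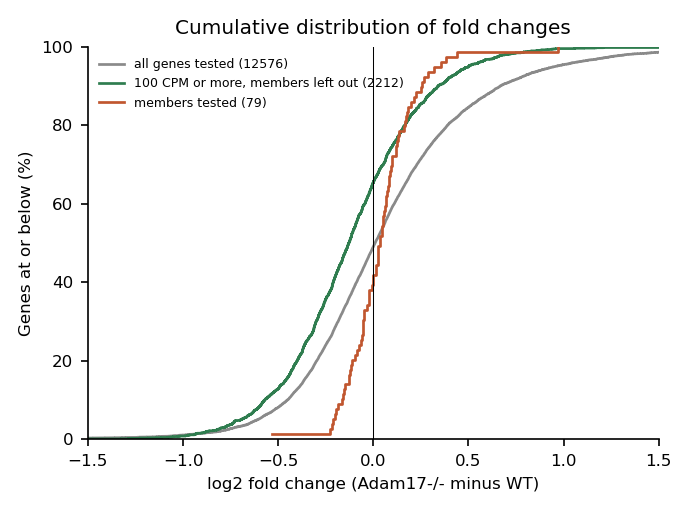
Cumulative share of genes, in percent, at or below each log2 fold change (Adam17-/- minus WT) for all 12576 genes tested, 2212 other genes of 100 CPM or more, and the 79 members tested. The curve of the members is the steepest and crosses its middle at 0.03, and that of the abundant genes crosses at -0.13. The axis ends at 1.5 in both directions.

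Of the large subunit 4 of 48 members passed and the median log2 fold change was 0.02, and of the small subunit 1 of 31 passed and the median was 0.05. Over all genes 31.7% passed and the median was 0.01. The difference between the subunits was not tested.

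Rpl9, a large subunit protein near the base of the stalk, had the largest change among the abundant members. It lay at 106 and 137 CPM in WT and at 169, 165 and 159 CPM in Adam17-/- libraries. The groups did not overlap, and the WT replicates differed more from each other than the Adam17-/- replicates did. Rpl9 rose by 0.44 on the log2 scale (SE 0.109, adjusted p = 0.0151 from edgeR), with group means of 121 ± 21.5 (SD, n = 2) and 164 ± 5.25 CPM (SD, n = 3). Without WT replicate 1 the log2 fold change was 0.26 (adjusted p = 0.0178), without Adam17-/- replicate 1 it was 0.44 (adjusted p = 0.0671), and without Adam17-/- replicate 2 it was 0.45 (adjusted p = 0.0568). It passed in 16 of 18 alternatives, the most of the 5.

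Rps21 was the only member of the 40S subunit that passed. It lay at 43.0 and 46.8 CPM in WT and at 56.0, 58.8 and 57.9 CPM in Adam17-/- libraries. Every Adam17-/- value was above both WT values, and the replicates of each group lay close together. The means were 44.9 ± 2.68 (SD, n = 2) and 57.6 ± 1.44 CPM (SD, n = 3), with a log2 fold change of 0.36 (SE 0.0864, adjusted p = 0.0132 from edgeR). Its log2 fold change was 0.36 without Adam17-/- replicate 2 (adjusted p = 0.0554) and 0.37 without Adam17-/- replicate 3 (adjusted p = 0.0518).

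Rpl39, one of the smallest ribosomal proteins and part of the wall of the exit tunnel for the growing chain, was at 32.2 and 42.3 CPM in WT and at 47.1, 50.4 and 48.2 CPM in Adam17-/- libraries. WT replicate 1 was below the other 4 libraries, which spanned 42.3 to 50.4 CPM. The log2 fold change of 0.38 (SE 0.118, adjusted p = 0.0344 from edgeR) was 0.20 without WT replicate 1 (adjusted p = 0.104) and 0.59 without WT replicate 2 (adjusted p = 0.0003). Without Adam17-/- replicate 1, 2 or 3 it was 0.42, 0.37 and 0.41, with adjusted p-values of 0.0868, 0.112 and 0.0931. Rpl35a, a large subunit protein whose gene is among those mutated in Diamond-Blackfan anaemia, was at 79.1 and 92.5 CPM in WT and at 119, 103 and 99.4 CPM in Adam17-/- libraries. Its log2 fold change of 0.32 (SE 0.107) had an adjusted p of 0.0456 from edgeR. It was 0.21 without WT replicate 1 (adjusted p = 0.12) and 0.26, 0.36 and 0.39 without Adam17-/- replicate 1, 2 or 3 (adjusted p = 0.174, 0.091 and 0.0636).

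**Figure D3:**
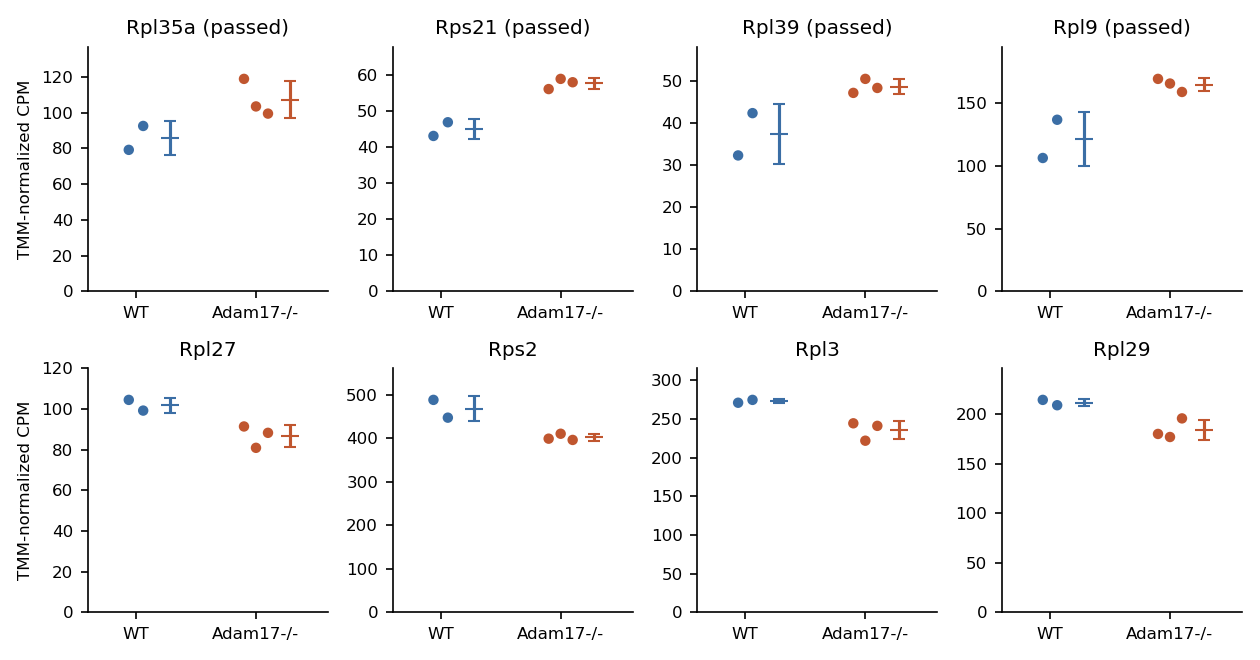
Level in TMM-normalized CPM in each library for 4 members that passed (top) and the 4 members of 10 CPM or more with the smallest log2 fold change, none of which passed (bottom). Points are the 2 WT and 3 Adam17-/- libraries, and the bars beside them are the mean and SD. In all 8 panels the groups do not overlap, and in Rpl39 and Rpl9 WT replicate 1 lies well below WT replicate 2.

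Rpl26, which sits near the exit of the tunnel, had the largest log2 fold change of the tested members, 0.97 (SE 0.27, adjusted p = 0.0232 from edgeR), at a very low assigned level. It lay at 2.56 and 1.84 CPM in WT and at 3.45, 3.88 and 5.61 CPM in Adam17-/- libraries. This level belongs to a gene whose reads are shared with a copy. Gm15772, a pseudogene, shares 436 of 438 aligned bases with Rpl26 (99.5%, longest identical run 176 bases) and was listed at 207 and 253 CPM in WT and at 272, 256 and 234 CPM in Adam17-/- libraries. With both counts added, the log2 fold change was 0.15 and did not pass (adjusted p = 0.287). Without WT replicate 2 or Adam17-/- replicate 3 the adjusted p of Rpl26 alone was 0.0684 and 0.0707.

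Rpl30 and Rpl14 also have near-identical pseudogenes. Rpl30 was listed at 1.64 to 2.60 CPM in all libraries and its copy Gm12191, which is 99.7% identical over 348 bases, at 94.0 to 115 CPM, and neither passed. Rpl14 was at 91.6 and 126 CPM in WT and at 137, 132 and 130 CPM in Adam17-/- libraries (log2 fold change 0.29, SE 0.124, adjusted p = 0.104 from edgeR). It did not pass, and the size of its change depended on the libraries and on the copy. It passed without WT replicate 2 at 0.53, and it did not at 0.07 without WT replicate 1 (adjusted p = 0.488) or at 0.10 with the counts of its copy added (adjusted p = 0.479). Its copy Rpl14-ps1, 98.9% identical over 656 bases, fell from 24.6 and 16.7 CPM in WT to 12.8, 3.947 and 1.959 CPM in Adam17-/- libraries (log2 fold change -1.72, adjusted p = 0.0308 from edgeR). How reads were divided between a gene and its copy is an estimate of the counting step, and the summed counts of 23 members were not whole in at least 1 library (tolerance 0.005).

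At the other end of the order stood Rpl37rt, Rpl27, Rps2, Rpl3 and Rpl29, and none of them passed. Rpl37rt, a retrotransposed gene with 343 of 344 aligned bases identical to Rpl37, was listed at 3.09 and 1.89 CPM in WT and at 1.42, 1.25 and 2.44 CPM in Adam17-/- libraries, where the groups overlap (log2 fold change -0.53, SE 0.336, adjusted p = 0.251 from edgeR). Without WT replicate 1 its log2 fold change was -0.14, and without WT replicate 2 it was -0.84. Rpl27 lay at 104 and 99.1 CPM in WT and at 91.3, 80.9 and 88.2 CPM in Adam17-/- libraries (log2 fold change -0.23, SE 0.0865, adjusted p = 0.0692 from edgeR). Rps2, a protein of the channel through which mRNA enters, lay at 488 and 447 CPM in WT and at 399, 410 and 396 CPM in Adam17-/- libraries (log2 fold change -0.22, SE 0.08, adjusted p = 0.0621 from edgeR). Their groups did not overlap, nor did those of the next pair. Rpl3, whose protein reaches towards the peptidyl transferase centre, had means of 273 ± 2.63 (SD, n = 2) and 236 ± 12.2 CPM (SD, n = 3). Its log2 fold change was -0.21. Rpl29 had means of 212 ± 3.78 (SD, n = 2) and 184 ± 10.1 CPM (SD, n = 3), and its log2 fold change was -0.20. Without WT replicate 1, Rpl3 passed at -0.22 (adjusted p = 0.0446 from edgeR), and without WT replicate 2, Rps2, Rpl27 and Rpl29 passed at -0.28, -0.27 and -0.22.

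Compared per length, in FPKM, the members were far from equal in level. Over the 76 members of 10 CPM or more the median was 274 FPKM in WT and 306 FPKM in Adam17-/- libraries. The 5 with the highest mean FPKM were Rpl41, Rps27, Rpl28, Rpl10 and Rpl35. Rpl41, the shortest protein of the ribosome, stood at 744 and 746 FPKM in WT and at 817, 773 and 799 FPKM in Adam17-/- libraries, 2.72 times the WT median. Rpl28, a protein of the large subunit, stood at 666 and 662 FPKM and at 702, 693 and 735 FPKM. In both genes the Adam17-/- libraries were higher in FPKM and not in CPM, where the log2 fold change was -0.05 for each with an adjusted p of 0.622 and 0.635 from edgeR. The FPKM values carry no TMM scaling. With library size only the median was 0.16 over all genes, 0.18 over the members and 0.02 over 2212 other genes of 100 CPM or more.

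Rps27, a small subunit protein with a zinc-binding fold, was at 163 and 212 CPM in WT and at 229, 225 and 217 CPM in Adam17-/- libraries (log2 fold change 0.26, SE 0.111, adjusted p = 0.105 from edgeR). Without WT replicate 2 it passed at 0.46, and without WT replicate 1 it was at 0.073 (adjusted p = 0.474). Rpl10, which joins the 60S subunit late and contacts the P site, was at 405 and 489 CPM in WT and at 447 to 466 CPM in Adam17-/- libraries, inside the range of the WT replicates. Rpl35, at the exit of the tunnel, was at 220 and 252 CPM in WT and at 234 to 238 CPM in Adam17-/- libraries, again inside that range.

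The stalk that recruits elongation factors is made of Rplp0, Rplp1 and Rplp2. Rplp0, its base, was the member with the highest mean CPM in WT, with 521 and 531 CPM, against 471, 460 and 474 CPM in Adam17-/- libraries (log2 fold change -0.17, SE 0.076, adjusted p = 0.121 from edgeR). Rplp1 had means of 185 ± 7.46 (SD, n = 2) and 181 ± 5.65 CPM (SD, n = 3), and Rplp2 had means of 144 ± 16.2 and 153 ± 1.39 CPM. None of the 3 passed. Rplp2 did without WT replicate 2, at 0.20 (adjusted p = 0.0365 from edgeR), and without WT replicate 1 it was at -0.03 (adjusted p = 0.773).

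The next genes, chosen for known roles or diseases, did not pass. Rpl5 and Rpl11, which with 5S rRNA form the particle that inhibits Mdm2 when ribosome assembly fails, had means of 291 ± 31.2 and 300 ± 11.8 CPM and of 150 ± 13.4 and 159 ± 4.32 CPM in WT and Adam17-/- libraries (SD, n = 2 and n = 3). Their log2 fold changes were 0.045 and 0.084. Rps19, the gene most often mutated in Diamond-Blackfan anaemia, had means of 128 ± 17.6 and 132 ± 6.06 CPM. Rps3, which also takes part in DNA repair, had 277 and 263 CPM in WT and 250 to 268 CPM in Adam17-/- libraries. Rps6, the substrate of the S6 kinases, had 305 and 388 CPM in WT and 324 to 360 CPM in Adam17-/- libraries, within the WT range. Rpsa, also known as a laminin receptor, had means of 450 ± 16.6 and 406 ± 23.0 CPM (log2 fold change -0.15, SE 0.0835, adjusted p = 0.198 from edgeR).

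Rpl13a, known in macrophages for its part in silencing inflammatory mRNAs after interferon-γ, was at 224 and 239 CPM in WT and at 283, 260 and 263 CPM in Adam17-/- libraries. The groups did not overlap, and the log2 fold change of 0.21 (SE 0.0821) had an adjusted p of 0.0736 from edgeR. Rpl22, an RNA-binding protein needed in T cell development, had means of 82.8 ± 15.4 (SD, n = 2) and 98.4 ± 12.3 CPM (SD, n = 3), with a log2 fold change of 0.25 (SE 0.135, adjusted p = 0.182 from edgeR). Rps27a, made as a fusion with ubiquitin, was at 140 and 184 CPM in WT and at 173 to 191 CPM in Adam17-/- libraries (log2 fold change 0.17, SE 0.115, adjusted p = 0.287 from edgeR). Without WT replicate 2, Rpl13a, Rpl22 and Rps27a passed at 0.26, 0.45 and 0.37, and without WT replicate 1 they were at 0.16, 0.068 and -0.019 and did not pass.

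The paralogs Rps27l, Rpl36al, Rpl3l and Rpl39l were listed below their partners. Rps27l had means of 15.3 ± 4.01 and 16.6 ± 0.602 CPM, or 31.9 and 38.3 FPKM, beside 582 and 769 FPKM for Rps27, with which it shares 169 of 214 aligned bases. Rpl36al had means of 112 ± 10.5 and 118 ± 3.42 FPKM, closer to those of Rpl36a, 142 ± 41.5 and 165 ± 5.95 FPKM, with which it shares 87.8% of 329 aligned bases. Rps4x, on the X chromosome, is itself the partner of a paralog outside the members and had means of 341 ± 43.5 and 370 ± 19.1 CPM. None of these genes passed. Without WT replicate 2, Rps27l, Rpl36a and Rps4x passed at 0.41, 0.36 and 0.25, and without WT replicate 1 their values turned to -0.13, -0.18 and -0.012 and did not pass. Rpl3l, a muscle paralog of Rpl3, had 1 count in each WT library and 6, 6 and 5 counts in the Adam17-/- libraries. Rpl39l, known from the testis, had 0 and 6 counts against 1, 1 and 4. Both were under the filter and were not tested.

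The share of each library's counts that fell on the members was 1.43% and 1.62% in WT and 1.74%, 1.67% and 1.70% in Adam17-/- libraries. The means were 1.53% ± 0.137 (SD, n = 2) and 1.70% ± 0.0348 (SD, n = 3), a ratio of 1.12. These shares carry no TMM scaling. Under library size alone the median log2 fold change was 0.16 over all genes and 0.18 over the members. Over the 2212 other genes of 100 CPM or more it was 0.02. What part of the ratio came with the scaling was not tested. The groups did not overlap, though WT replicate 2 lay nearer to the Adam17-/- libraries than to WT replicate 1. The ratio was 1.05 without WT replicate 1 and 1.19 without WT replicate 2. Both subunits had nearly the same ratio, 1.11 for the large and 1.12 for the small. The 100 most abundant genes took 26.1% and 27.7% of the counts in WT and 24.02% to 24.96% in Adam17-/- libraries, and with these genes left out the ratio was 1.08.

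**Figure D4:**
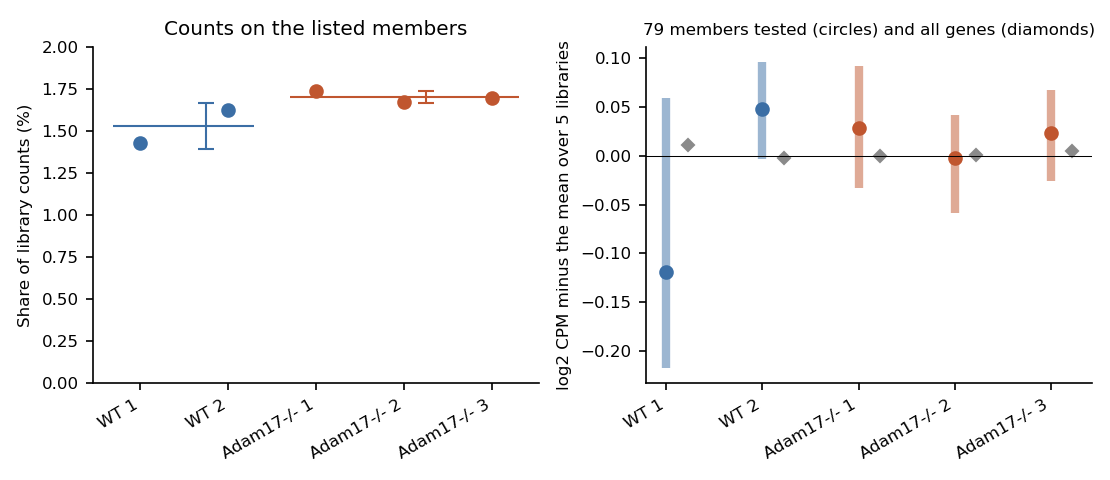
Left, share of each library's counts, in percent, on the 81 listed members, with the mean and SD of each group. Right, median over the 79 tested members of each library's log2 CPM minus the gene's mean over the 5 libraries (circles, bars from the first to the last quartile) and the same median over all genes (diamonds). WT replicate 1 is lowest in both, at 1.43% and -0.12.

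WT replicate 1 was low for many of these genes. It was the lowest of the 5 libraries for 47 of the 79 members and the highest for 16, and its median deviation from the mean over libraries was -0.12, against 0.048 in WT replicate 2 and -0.0025 to 0.028 in the Adam17-/- libraries. The median difference between the WT replicates was 0.13 on the log2 scale over the members, with 59 of 79 higher in replicate 2, while over all genes it was -0.036. Of 18 other transcripts with a TOP motif 14 were also lower in WT replicate 1 than in replicate 2, and their summed level was 4152 CPM there against 4204 to 4616 CPM in the other libraries. That difference was larger than the median difference between the groups, 0.03. Without WT replicate 2 the median over the members was 0.14. Without WT replicate 1, with 31.5% of all genes passing, 3 members were higher, Rpl9, Rpl26 and Rps21, and 3 lower, Rpl3, Rpl7a and Rpl23a, and the median was -0.06. Without Adam17-/- replicate 1, 2 or 3, the numbers that passed were 2, 1 and 1, and the share of all genes fell too, to 16.2%, 19.3% and 19.7%.

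Among the members the fold change varied with base composition. GC content ran from 41.3% in Rps20 to 60.8% in Rpl36, with a median of 50.8% that was close to that of all genes, 50.2%. Over 76 members of 10 CPM or more, which share these 5 libraries, Spearman's rho between GC content and log2 fold change was -0.38, and over 12372 genes it was -0.29. All 4 abundant members that passed lay between 48.1% and 52.5%. The median was 0.045 over 7 members below 46%, 0.12 over 20 of 46% to 50%, 0.035 over 27 of 50% to 54%, and -0.04 over 22 of 54% or more. Among all genes of 54% or more, 291 were higher and 919 lower. With offsets for GC content the rho was 0.13 over the members, and 11 were higher and 1, Rps20, was lower, with 39.0% of all genes passing. Length ran from 313 to 5158 bases with a median of 703, against 2812 over all genes, and had a rho of -0.12.

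**Figure D5:**
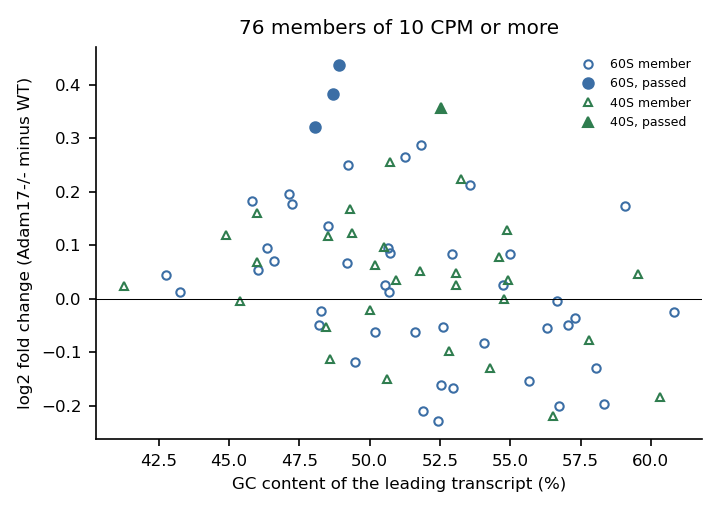
Log2 fold change (Adam17-/- minus WT) against the GC content of the leading transcript, in percent, for 76 members of 10 CPM or more, circles for the 60S and triangles for the 40S subunit. Filled symbols are the 4 members that passed, which lie between 48.1% and 52.5%. Values are lower towards high GC content (rho -0.38), but the fall is not even, since members below 46% have a lower median (0.045) than those of 46% to 50% (0.12).

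Other genes of the translation machinery were read beside the members, and their counts stand against 14.9% higher and 16.8% lower over all genes. Fau, whose product is a ubiquitin-like protein fused to a small subunit protein, had 331 and 393 CPM in WT and 416 to 453 CPM in Adam17-/- libraries and did not pass (log2 fold change 0.25, adjusted p = 0.0731 from edgeR). Rack1, a scaffold protein on the small subunit, did not pass either (log2 fold change -0.08, adjusted p = 0.447 from edgeR). The 2 paralogs Rpl7l1 and Rpl22l1 did not pass with either tool, also not at an unadjusted p under 0.05. Of 18 other transcripts with a TOP motif, 0 were higher with edgeR or DESeq2 (2 at an unadjusted p under 0.05) and 1 was lower, with a median of 0.01. The lower one was Eif3l, a subunit of the initiation factor eIF3, with a log2 fold change of -0.46 (adjusted p = 0.00538 from edgeR).

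Of 7 genes listed with translation elongation 3 were lower and 0 higher with edgeR, with a median of -0.20. With DESeq2 2 were lower and 0 higher. At an unadjusted p under 0.05, 4 were lower and 0 higher with either tool. Eif5a, which helps the ribosome past stalls, fell by 0.42 on the log2 scale, and Eef2, which moves the ribosome along the mRNA, by 0.26. Eef1e1, which is named like these factors but is part of the tRNA synthetase complex, fell by 0.55. The adjusted p-values were 0.00363, 0.0396 and 0.0236 from edgeR. The mitochondrial ribosome, which has its own proteins, had 2 of 78 genes higher and 6 lower, with a median of -0.16. Mrpl45 rose by 0.63, and Mrpl52, Mrpl12 and Mrps18b fell by 0.66, 0.53 and 0.51. Of 16 genes listed with ribosome chaperones and quality control, 2 were higher and 4 lower, with a median of -0.10. The 16 include Acd, a telomere protein gene that belongs to neither group and did not pass (log2 fold change -0.01). The 4 largest changes included Nemf, which extends stalled chains (0.40), and Abce1, which splits finished ribosomes (-0.39).

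Of 26 genes of mTORC1 and of the regulators of TOP mRNAs, 5 were higher and 7 lower, with a median of -0.15. Over all genes 14.9% were higher and 16.8% lower, also beside the other lists below. Myc, a transcription factor known to drive ribosome production, had 67.6 and 51.5 CPM in WT and lay far lower in every Adam17-/- library (log2 fold change -1.73, SE 0.186, adjusted p = 0.000477 from edgeR). Eif4g1, the scaffold of the cap-binding complex, fell by 0.70. Tia1 and Tial1, which bind TOP mRNAs under starvation, rose by 0.80 and 0.66. Larp1 and Rptor, a subunit of mTORC1, fell by 0.44 and 0.60 (adjusted p = 0.00848 and 0.00146 from edgeR). Mtor (-0.21) and Mlst8 (-0.34), also of mTORC1, did not pass (adjusted p = 0.0879 and 0.0521 from edgeR). Rps6kb1, an S6 kinase, and Tsc1 rose by 0.62 and 0.32 (adjusted p = 0.00327 and 0.0263 from edgeR). Of these 12 changed genes 1, Myc, passed a log2 fold change of 1. Transcripts that stay in the nucleus had 3 of 5 genes higher and 0 lower with edgeR and with DESeq2, also at an unadjusted p under 0.05. Their summed level was 6009 and 6105 CPM in WT and 9916 to 11320 CPM in Adam17-/- libraries, and its part in the members' values was not tested. Of 15 proliferation genes 5 were higher and 5 lower, with a median of 0.15.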

How the data were processed

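Poly(A) RNA of 5 BMDM libraries was sequenced by the authors on a BGISEQ-500. The submitters' processing notes name mm10, Bowtie, Bowtie2, RSEM and DESeq2, and the versions are not given in the sources used here. For each transcript the authors deposited an expected count, not normalized, and an FPKM value, scaled to length and library size. Transcripts that are not listed were taken as 0.

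Expected counts were summed per gene (Entrez ID, 17015 of 17058 with a RefSeq symbol), and the rounded sums were fitted by edgeR 4.0.16 (R 4.3.3) with TMM factors, filterByExpr, glmQLFit and glmQLFTest and no covariates, with Benjamini-Hochberg adjustment over all genes. Levels are TMM-normalized CPM. With 2 libraries against 3, no exact permutation test of 1 gene can reach 0.05. Counting error and the spread between libraries both enter the fit. The fit was tested on simulated data first. GC content and copies came from GENCODE vM21 transcripts, aligned locally with biopython 1.88, and start sites from RefSeq (GRCm38.p6). Other tools were limma 3.58.1, DESeq2 1.42.0, Python 3.11.15, pandas 2.3.3, scipy 1.17.1 and matplotlib 3.10.9.

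The members and lists were chosen with earlier results of these data known. Genes named with values were the 5 tested members with the largest and the 5 with the smallest log2 fold change, the 5 with the highest mean FPKM, the stalk genes, Rpl5, Rpl11, Rps19, Rpl22, Rpl13a, Rps3, Rps6, Rpsa, Rps27a, the paralogs and their partners, and at most 4 passing genes of other lists. Rpl14, Rpl30, Rps20, Fau, Rack1, Larp1, Rptor, Rps6kb1, Mtor, Mlst8, Tsc1 and Acd were named after their values were seen. So were the copies and the members that passed without a library. The alternatives were other scalings, filters, tools and thresholds, the leading transcript alone, a replicate block and each replicate left out, and GC offsets (loess, span 0.5) and added pseudogene counts were chosen after seeing the data. A result on 1 other gene is not reported here.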

Additional observations from a re-analysis of the deposited data

How the results depend on the processing

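The number of members that passed, 5 (4 large, 1 small), was within 1.5 times of that value with DESeq2, DESeq2 size factors, upper quartile factors, TMM factors without the members, both filters on low counts and the added pseudogene counts. The small subunit count was 2 with DESeq2 and with upper quartile factors. With library size only it was 16 (11 large, 5 small; median log2 fold change 0.178, all genes 0.156, with 32.6% of all genes passing), and with limma on log2(FPKM + 0.1) or log2(FPKM + 1) it was 15 (10 and 5; medians 0.191 and 0.190, all genes 0.153 and 0.113, with 31.4% and 30.8% of them passing). It was 2 (1 and 1) with the most abundant transcript alone, where the share of all genes also fell, to 20.3%, 12 (7 and 5) with GC offsets (39.0% of all genes), and 0 with a log2 fold change of 1 or with an adjusted p under 0.001 and a log2 ratio over 0.25, limits from the study's methods, which 531 and 311 of all genes passed.

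With the replicate block, 1 member passed (1 large, 0 small), Rpl9, and 18.6% of all genes. Same-numbered libraries did not deviate together (r -0.124 and -0.0504), so the numbers are not taken to pair the samples. With each replicate left out, the count ran from 1 to 33 (large 1 to 19, small 0 to 14), the median from -0.0569 to 0.144, and the ratio of shares from 1.05 to 1.19, with both ends of the last 2 set by the WT replicates. Left with 1 WT library, the fit takes its spread from the other group.

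All 90 alternative values of the 5 passing members were positive. Of 557 alternative values for 31 named members, 22 passed where the main value did not and 22 the reverse. Rps27a (-0.019 to 0.373) and Rps4x (-0.012 to 0.251) changed sign without WT replicate 1. The sign of the 14 named members under 1 standard error is not read as a direction, and 55 of their alternative values had the other sign. Rpl26, Rpl30 and Rpl37rt were each listed under 10 CPM, while their near-identical partners Gm15772, Gm12191 and Rpl37 were listed far higher. Their values are limited by low counts and by how shared reads were divided.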
